A study of Mus musculus with 2 samples.

Results

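Hair follicle stem cell regulators and markers are described here through 10 genes, all of them present among the 23233 gene symbols of the deposited table. They were chosen by name: 7 transcription factors (Lhx2, Sox9, Tcf7l1, Nfatc1, Tbx1, Foxc1 and Runx1) and 3 cell surface proteins (Cd34, Lgr5 and Cd200). The cells came from ventral skin of 7-day-old wild-type C57BL/6 mice and were separated by flow cytometry with an antibody against ZIP10, a zinc importer of the cell membrane, into ZIP10-positive and ZIP10-negative cells. Both groups share strain, age, tissue and the overnight dispase and collagenase digestion. There was 1 library per group, so no difference below has a replicate check or a test, and neither the number of mice nor any pooling is given in the labels. The sample titles speak of follicle cells, whereas the protocol describes a suspension of whole ventral skin sorted on ZIP10 alone, with no gate on a stem cell protein.

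Follicle stem cells sit in the bulge, a niche of the outer root sheath, and rebuild the lower follicle at each hair cycle. SOX9 and LHX2 specify and maintain them, TCF7L1 represses WNT target genes, NFATC1 and FOXC1 hold them in quiescence, TBX1 supports their self-renewal, and RUNX1 promotes their activation. CD34 and CD200 are surface proteins used to isolate bulge cells, and LGR5 is a receptor for R-spondins found on cycling cells of the lower follicle. None of these genes is exclusive to the follicle: CD34 is also found on endothelial cells, dermal fibroblasts and mast cells, RUNX1 in blood cells, NFATC1 in endothelial cells and lymphocytes, and CD200 on endothelial cells and some lymphocytes.

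Promoter sequences of RefSeq, on GRCm38.p6, were used for 7 of the 10 genes, with 10 start sites in all, each as 250 bases before and 50 bases after the start. Since 7 of the genes encode DNA-binding proteins, these windows were searched on both strands for the letters of motifs bound by their families: TAATTA for LHX, ATCAAAG for TCF, TGTGGT for RUNX, TGGAAA for NFAT, ACAATG for SOX, GTAAACA for FOX and AGGTGTGA for T-box factors. No window of Sox9, Nfatc1 or Lgr5 was searched. The selection left out the chromosome that holds Nfatc1, a step not applied to the shares over all windows below. The windows of the gene with the highest level (Lhx2), of the gene with the largest ratio (Tbx1) and the windows with a RUNX match (Foxc1 and the upstream start of Runx1) are shown here, with matched letters in capitals. They lie at chr2:38339031-38339330 on the plus strand, chr16:18588850-18589149 on the minus strand, chr13:31806396-31806695 on the plus strand and chr16:92826025-92826324 on the minus strand, in that order.
Lhx2: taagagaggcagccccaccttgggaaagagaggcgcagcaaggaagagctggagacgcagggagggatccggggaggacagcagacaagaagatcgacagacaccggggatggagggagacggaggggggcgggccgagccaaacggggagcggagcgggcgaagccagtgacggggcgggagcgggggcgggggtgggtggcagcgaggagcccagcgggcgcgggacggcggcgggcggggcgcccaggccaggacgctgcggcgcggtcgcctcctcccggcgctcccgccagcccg
Tbx1: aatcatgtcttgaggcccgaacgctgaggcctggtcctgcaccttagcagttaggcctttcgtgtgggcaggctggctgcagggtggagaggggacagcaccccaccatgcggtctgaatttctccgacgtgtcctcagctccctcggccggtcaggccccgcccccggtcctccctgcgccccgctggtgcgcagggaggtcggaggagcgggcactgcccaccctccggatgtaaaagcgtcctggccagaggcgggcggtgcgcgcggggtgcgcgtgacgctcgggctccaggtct
Foxc1: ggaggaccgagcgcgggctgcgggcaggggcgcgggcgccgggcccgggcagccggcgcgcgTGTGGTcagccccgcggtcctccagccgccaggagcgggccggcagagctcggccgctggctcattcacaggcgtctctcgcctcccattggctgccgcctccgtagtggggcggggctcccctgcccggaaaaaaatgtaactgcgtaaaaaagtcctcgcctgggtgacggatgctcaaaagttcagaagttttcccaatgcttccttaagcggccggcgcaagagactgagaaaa
Runx1: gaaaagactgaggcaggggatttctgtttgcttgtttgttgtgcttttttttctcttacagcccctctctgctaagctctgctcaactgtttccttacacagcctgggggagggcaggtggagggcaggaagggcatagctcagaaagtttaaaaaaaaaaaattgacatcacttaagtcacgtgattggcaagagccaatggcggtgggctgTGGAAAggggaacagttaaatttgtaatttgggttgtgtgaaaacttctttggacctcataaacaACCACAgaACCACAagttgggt

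The Lhx2 and Tbx1 windows held none of the 7 motifs. The Foxc1 window held 1 RUNX match, and the upstream Runx1 window held 2 RUNX matches on the opposite strand and 1 NFAT match, which do not overlap. A further NFAT match lay in the downstream Runx1 window, so 3 of the 10 windows held a motif, against 48.6% of the 32851 promoter windows in the table. By motif, these shares of all windows were 16.8% for RUNX, 21.4% for NFAT, 12.6% for SOX, 5.29% for LHX, 3.73% for TCF, 3.65% for FOX and 1.28% for T-box. A match describes letters in a window and not a bound site. The windows differed in base composition: 7 of the 10 lay above the median GC content of all windows, 52.7%, with 75.3% for Tcf7l1, 74.7% for the Lhx2 window shown and 67.3% for Foxc1, while Cd200 and the upstream Runx1 window had 45.0% and Cd34 50.0%.

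All 10 genes had a higher deposited value in ZIP10-positive than in ZIP10-negative cells. Values are in RPKM, reads scaled by transcript length and library size, so that levels of different genes can be compared. All 10 reached 1 RPKM in the ZIP10-positive library, and 8 did so in both. Depth was low, with estimates of 2.78e+06 reads (ZIP10-positive) and 2.71e+06 reads (ZIP10-negative), so that each gene rests on 11 to 114 reads per library. Intervals below are exact 95% intervals on these estimated reads and cover counting error only.

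Among the transcription factors, Lhx2, a LIM homeodomain protein, had the highest level in both libraries, at 19.7 RPKM in ZIP10-positive cells against 6.01 RPKM in ZIP10-negative cells. From about 114 and 34 reads its ratio was 3.27, with an interval of 2.21 to 4.95. Sox9, an SRY-box factor, stood at 7.74 and 4.67 RPKM, from about 85 and 50 reads. Its ratio of 1.66, with an interval of 1.16 to 2.40, was the smallest of the 10. Lhx2 and Sox9 thus stood close to each other in ZIP10-negative cells, where their level intervals overlap, and apart in ZIP10-positive cells.

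Tbx1, a T-box factor, had 10.3 RPKM in the ZIP10-positive library and 2.11 RPKM in the other. Its ratio of 4.88, with an interval of 2.52 to 10.3 from about 55 and 11 reads, was the largest of the 10. Foxc1, a forkhead factor, stood at 4.27 and 1.07 RPKM, a ratio of 3.99 with an interval of 2.03 to 8.56 from about 45 and 11 reads. Tbx1 and Sox9 were the only pair among 45 whose ratio intervals do not overlap.

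Nfatc1, the calcineurin-dependent factor of stem cell quiescence, stood at 3.17 and 0.969 RPKM. Its ratio of 3.27 has a wide interval, 1.68 to 6.86, from about 39 and 12 reads. Tcf7l1, a repressor of the TCF/LEF family, stood at 9.34 and 4.21 RPKM, a ratio of 2.22 with an interval of 1.38 to 3.67. Runx1, a runt-domain factor, stood at 3.67 and 1.60 RPKM, a ratio of 2.30 with an interval of 1.33 to 4.10. The intervals of these 3 ratios overlap each other widely.

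The surface proteins had ratios between those of Foxc1 and Sox9. Cd34, a sialomucin of adult bulge cells, reached 7.37 RPKM in the ZIP10-positive library and 2.61 RPKM in the other, a ratio of 2.83 with an interval of 1.58 to 5.35. Lgr5, the R-spondin receptor, was the lowest of the 10 in ZIP10-positive cells, at 2.41 RPKM against 0.981 RPKM. Its ratio of 2.46 has an interval of 1.22 to 5.27 from about 30 and 12 reads. Cd200, an immunoregulatory glycoprotein, stood at 6.87 and 3.61 RPKM, a ratio of 1.90 with an interval of 1.10 to 3.39. The intervals of the 3 surface proteins overlap each other and those of all 7 transcription factors.

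**Figure D1:**
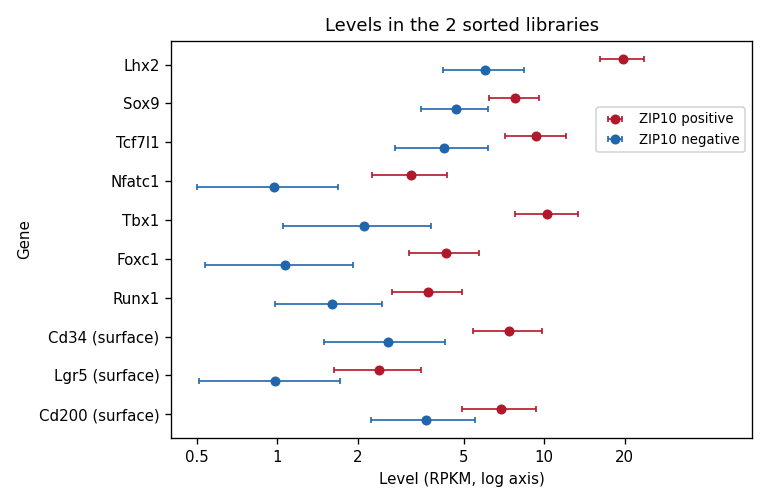
Level of each gene in RPKM (log axis) in the ZIP10-positive (red) and ZIP10-negative (blue) library, with exact 95% Poisson intervals from estimated reads as bars, 1 library per group. Every red point lies to the right of its blue point, from 2.41 RPKM for Lgr5 to 19.7 RPKM for Lhx2.

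The order of levels was similar in both libraries, with Lhx2 first and Nfatc1 and Lgr5 among the last. In ZIP10-positive cells the order was Lhx2, Tbx1, Tcf7l1, Sox9, Cd34, Cd200, Foxc1, Runx1, Nfatc1 and Lgr5. Of the 9 neighbouring pairs in this order 8 had overlapping level intervals; Lhx2 was above Tbx1 beyond counting error, with a lower bound of 16.2 RPKM against an upper bound of 13.4 RPKM. In ZIP10-negative cells the order was Lhx2, Sox9, Tcf7l1, Cd200, Cd34, Tbx1, Runx1, Foxc1, Lgr5 and Nfatc1, and all 9 neighbouring pairs overlapped. Tbx1 stood second in ZIP10-positive and sixth in ZIP10-negative cells. Among the 12249 genes that reached 1 RPKM in either library, Lhx2 lay at percentile 74.2 of level in ZIP10-positive cells, Tbx1 at 59.5 and Lgr5 at 22.4.

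The higher values of these genes have to be read against the whole table, since most genes were higher in the ZIP10-positive library. For counts, the log2 ratio was computed with a pseudocount of 1 RPKM, log2((positive + 1)/(negative + 1)), which understates the ratio of low genes. On this scale 5 of the 10 genes were at least 2-fold higher (Tbx1 at 1.86, Lhx2 at 1.56, Foxc1 at 1.35, Cd34 at 1.22 and Nfatc1 at 1.08), against 44.1% of the 12249 genes compared. Tcf7l1 lay just under the 2-fold line at 0.99, and Runx1, Lgr5, Cd200 and Sox9 followed at 0.85, 0.78, 0.77 and 0.62. None of the 10 was 2-fold lower, against 3.55% of all genes, and all 10 were above 0, as were 82.7% of all genes. The median log2 ratio was 1.04 over the 10 and 0.87 over all genes compared. Of the 6050 genes whose mean level lay within the range of the 10, 35.9% were at least 2-fold higher, with a median of 0.70. These shares are close to that of the stem cell genes, so as deposited they do not stand apart from the table.

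**Figure D2:**
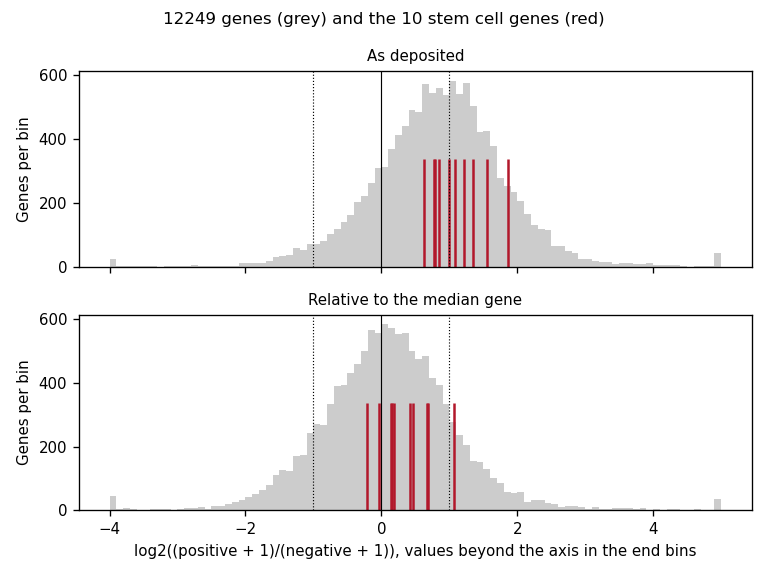
Number of genes per bin of the log2 ratio (grey, 12249 genes) with the 10 stem cell genes as red lines, as deposited (top) and relative to the median gene (bottom); dotted lines mark 2-fold. The red lines fall within the bulk of genes in both panels, and relative to the median gene 1 of them, Tbx1, passes the upper 2-fold line.

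Relative to the median gene the group lay slightly above the middle, and Tbx1 stood highest. The median gene, taken over the 9620 genes that reached 1 RPKM in each library, had a ratio of 1.97. Relative to it, 8 of the 10 genes were above and 2, Sox9 and Cd200, below, with log2 values of -0.21 and -0.041. The share of all genes compared that lay above it was not computed. Tbx1, at 1.07, was the 1 gene still at least 2-fold higher, against 14.7% of all genes, and none was 2-fold lower, against 11.4%. Foxc1 stood at 0.69, Lhx2 at 0.67, Nfatc1 at 0.47 and Cd34 at 0.43. Lgr5, Runx1 and Tcf7l1 lay near 0, at 0.19, 0.16 and 0.15. The median over the 10 was 0.31, against 0.094 over all genes and -0.060 over the genes of similar mean level.

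Counting error alone spans the median gene for most of the group. The intervals of Tbx1, Lhx2 and Foxc1 lay above a ratio of 1.97, with lower bounds relative to the median gene of 1.28, 1.12 and 1.03, and the other 7 intervals included it. All 10 intervals lay above equal values as deposited. The share of all genes whose intervals lay above either line was not computed. These bounds do not cover differences between mice, sorts or libraries.

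**Figure D3:**
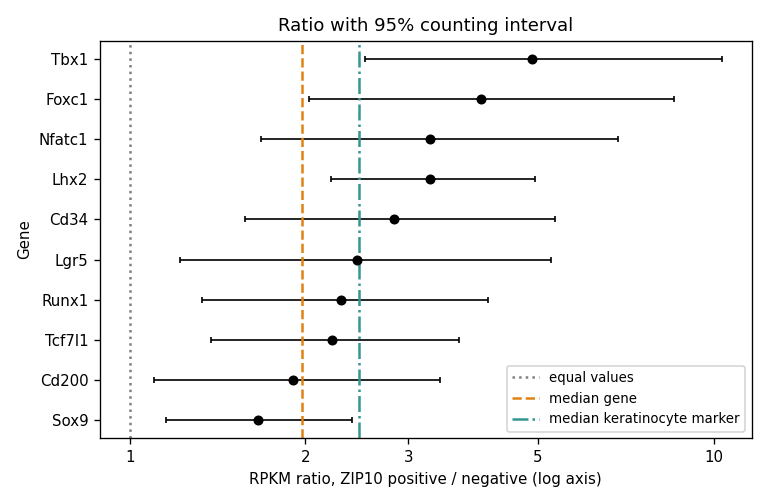
RPKM ratio of ZIP10-positive to ZIP10-negative cells for each gene (log axis), without a pseudocount, with exact 95% counting intervals as bars. Vertical lines mark equal values, the median gene (1.97) and the median keratinocyte marker (2.47); the bars of Tbx1, Foxc1 and Lhx2 lie to the right of the median gene.

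Which of the genes lay above and below 0 depended on the scaling. The zero point of the log2 ratio was 0.98 for the median gene, 1.33 for the RPKM sum of genes outside the 50 most abundant, 1.39 for the sum without globin genes and the ribosomal RNA precursor Rn45s, and 1.30 for the median of 9 keratinocyte markers. Under the last 3 of these, none of the 10 was 2-fold higher, against 9.7%, 8.99% and 9.93% of all genes, and none 2-fold lower, against 17.6%, 19.2% and 17%. In each of these scalings 5 of the 10 were above 0 and 5 below. The matching shares of all genes were not computed. Without a pseudocount, the ratio at these 3 zero points was 2.51, 2.63 and 2.47. Only the counting interval of Tbx1, from 2.52, lay above 2.47 and 2.51, and it included 2.63. That bound lies very close to 2.51 and rests on rough read numbers, from the median of 2 transcript lengths, 1858 and 2511 bases. The intervals of Lhx2 and Foxc1 began at 2.21 and 2.03 and included all 3. Tbx1, Foxc1, Lhx2, Nfatc1 and Cd34 kept a positive value in each scaling, for Tbx1 from 0.73 to 1.86 and for Cd34 from 0.087 to 1.22. Tcf7l1, Runx1 and Lgr5 turned from above to below 0 outside the 50 most abundant, to -0.15, -0.090 and -0.019, and Sox9 and Cd200 were below 0 in every scaling other than the deposited one.

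**Figure D4:**
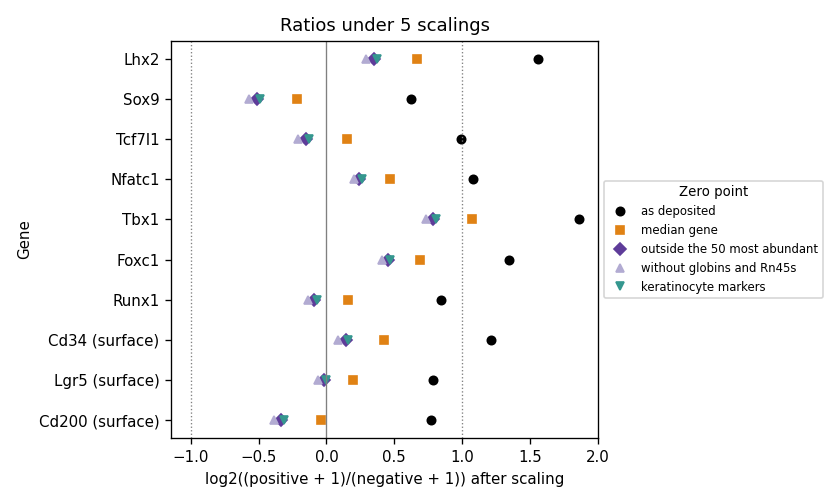
log2((positive + 1)/(negative + 1)) of each gene under 5 zero points, with dotted lines at 2-fold. The order of genes changes in part, as for Lhx2 and Foxc1 or Tcf7l1 and Lgr5, and the zero line passes through the group. Tbx1 stays rightmost, from 0.73 to 1.86, and Sox9 leftmost, from -0.57 to 0.62.

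Epithelial cells of the follicle and epidermis were present in both libraries, and the 10 genes had a median ratio close to that of their markers. All 9 keratinocyte markers (such as Krt5, Krt14 and Trp63) were above 0 in both libraries, with a summed level of 2382 RPKM against 734 RPKM, ZIP10-positive cells given first. At least 2-fold higher were 7 of them and 2-fold lower none, against 44.1% and 3.55% of all genes as deposited. Jup was slightly lower in ZIP10-positive cells, at 59.8 against 62.1 RPKM, and Itgb4 nearly level, at 4.76 against 4.25 RPKM. The median ratio of the 9 markers without a pseudocount was 2.47, against 2.64 for the stem cell genes. Relative to the keratinocyte median, Tbx1 stood at 0.81, Foxc1 at 0.47 and Lhx2 at 0.37, Lgr5 at -0.0045, Cd200 at -0.31 and Sox9 at -0.49 on the log2 scale. The summed level of the 10 was 74.8 RPKM against 27.8 RPKM.

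Other cell types that express some of these genes also differed between the libraries, and their part in the results was not tested. In these bulk samples fewer cells of a type and less RNA per cell cannot be told apart. For Cd34, Nfatc1 and Cd200, the 10 endothelial markers summed to 28.9 RPKM in the ZIP10-positive library, against 6.06 RPKM. Egfl7 alone gave 16.5 against 0.321 RPKM, and the other 9 summed to 12.4 against 5.74 RPKM, a ratio of 2.17. Emcn was at 0 in both libraries, and Tek and Tie1 at 0 in ZIP10-negative cells. Of the 5 markers that reached 1 RPKM, 2 were at least 2-fold higher, against 44.1% of all genes as deposited. The same share stands beside the counts that follow in this paragraph. For Cd34 and Runx1, the 7 mast cell markers summed to 305 against 14.5 RPKM, with 5 of 6 compared at least 2-fold higher and Ms4a2 at 0 in ZIP10-negative cells. The 7 macrophage markers summed to 1120 against 50.4 RPKM, with all 6 compared at least 2-fold higher, Lyz2 alone at 772 RPKM, and Lyz2 and Mrc1 at 0 in ZIP10-negative cells. A listed 0 may be a failed estimate rather than no reads. The 8 fibroblast markers, all above 0, summed to 553 against 456 RPKM with 3 at least 2-fold higher, and the 6 dermal papilla markers, also all above 0, to 853 against 325 RPKM with 2 at least 2-fold higher. Crabp1 made up most of the dermal papilla sum, and the other 5 summed to 193 against 162 RPKM.

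T cell and red cell markers went the other way. The 7 T cell markers summed to 129 RPKM in the ZIP10-positive library, against 723 RPKM, with none at 0 and all 6 compared at least 2-fold lower. The 7 erythroid markers summed to 16377 and 283754 RPKM and all were at least 2-fold lower. Over all genes compared, 3.55% were at least 2-fold lower as deposited. The 6 melanocyte markers, also all above 0, summed to 281 and 201 RPKM, with none 2-fold apart as deposited. Relative to the median gene 2 of them were at least 2-fold lower, against 11.4% of all genes, and their median log2 ratio was -0.44. Slc39a10, the gene of the sorted protein, stood at 49.4 and 11.1 RPKM, the direction that the labels give, in mRNA of 1 library per group. Its log2 ratio was 1.12 relative to the median gene and 0.79 outside the 50 most abundant. It was 0.72 without globin genes and Rn45s and 0.81 relative to the keratinocyte markers. As deposited, its log2 ratio lay at percentile 91.2 of the genes compared.

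Shares within a gene family do not depend on how the libraries are scaled, and the composition of the TCF/LEF family differed between them. TCF/LEF proteins are the DNA-binding partners of beta-catenin in WNT signalling. Tcf7l1 made up 27.3% of the summed RPKM of Tcf7, Tcf7l1, Tcf7l2 and Lef1 in ZIP10-positive cells and 5.97% in ZIP10-negative cells. Tcf7, the member typical of T cells, went from 10.4% to 66.5%, at 3.56 RPKM against 46.8 RPKM in ZIP10-negative cells. The T cell markers above moved in the same direction as Tcf7, and their part in this was not tested. Lef1, a factor of the hair matrix and of T cells, was level as deposited, at 18.8 and 19.0 RPKM. Its log2 ratio relative to the median gene was -0.94. Tcf7l2 stood at 2.52 and 0.484 RPKM.

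In the RUNX family Runx1 held 29.0% of the sum in ZIP10-positive and 15.2% in ZIP10-negative cells, while Runx3, at 7.60 and 7.79 RPKM, held 59.9% and 74.0%. Nfatc1 was a minor part of the 5 NFAT genes, at 13.6% and 5.26%, and Nfatc4 the main one, at 55.1% and 65.1%. Tbx1 held 50.2% of its subfamily of 6 genes in ZIP10-positive and 25.2% in ZIP10-negative cells, where Tbx15, a factor of dermal cells, held most of the rest at 43.8% and 68.0%. Foxc1 accounted for 93.7% of the FOXC pair in ZIP10-positive cells, and Foxc2 was listed at 0 in ZIP10-negative cells.

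Sox9 and Lgr5 differed little in their family shares. Sox9 held 57.7% and 63.1% of the SOX group E sum in ZIP10-positive and ZIP10-negative cells, with Sox10, a melanocyte and nerve sheath factor, at 38.4% and 29.8%. Lgr5 made up 4.62% and 5.34% of the LGR sum, in which Lgr4, the widely expressed R-spondin receptor, held 76.4% and 82.9%. Lgr6, a receptor of isthmus and epidermal stem cells, stood at 9.87 and 2.15 RPKM and held 18.9% and 11.7%. Of the 3 LGR receptors Lgr5 had the lowest level in both libraries.

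**Figure D5:**
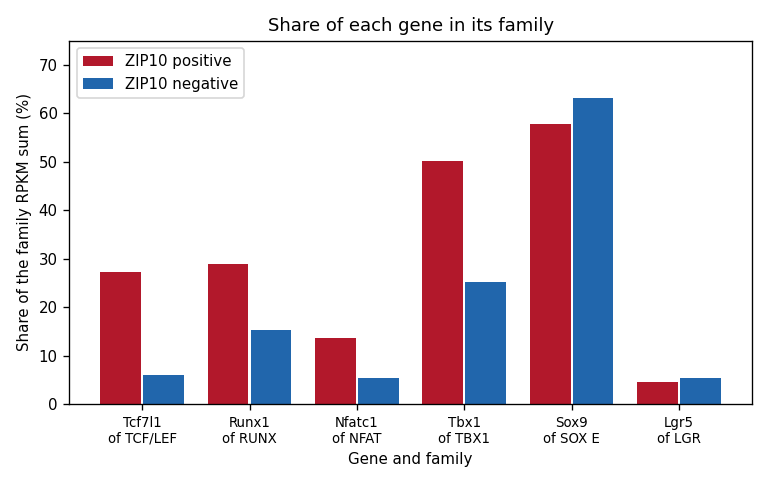
Share of the summed RPKM of its gene family held by Tcf7l1, Runx1, Nfatc1, Tbx1, Sox9 and Lgr5, in percent, in the ZIP10-positive (red) and ZIP10-negative (blue) library, 1 library per group. The share of Tcf7l1 is 27.3% against 5.97% and that of Tbx1 50.2% against 25.2%, while Sox9 and Lgr5 have slightly larger shares in ZIP10-negative cells.

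Relatives and partners of the stem cell genes had a median log2 ratio of 0.82 as deposited, below the 1.04 of the genes themselves. Of 45 relatives and partners 37 reached 1 RPKM in a library, and of these 12 were at least 2-fold higher and 1, Tcf7, at least 2-fold lower as deposited, against 44.1% and 3.55% of all genes. Relative to the median gene 1 was at least 2-fold higher, Rnf43, and 4 at least 2-fold lower, against 14.7% and 11.4% of all genes. The median over the 37 was then -0.072, against 0.094 over all genes compared. Cofactors of LHX2 and related LIM proteins were unequal in level. Lmo4, a LIM-only protein, stood at 110 and 33.0 RPKM, and Ldb1, the LIM-domain binding protein, at 46.0 and 25.5 RPKM, a ratio of 1.81. Ldb2, a second LIM-domain binding protein, was low in both libraries, at 1.26 and 1.61 RPKM. Cbfb, which pairs with RUNX factors on DNA, stood at 35.2 and 10.6 RPKM, a ratio of 3.33. Ctnnb1, beta-catenin, stood at 176 and 82.6 RPKM, and the corepressor gene Tle3 at 28.0 and 15.5 RPKM.

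In the calcineurin and NFAT list 2 of 8 compared genes passed 2-fold upwards and none downwards, against 44.1% and 3.55% of all genes. With the median gene as zero point none passed upwards and 1, Ppp3ca, downwards, against 14.7% and 11.4% of all genes. Cdk4, a cell cycle kinase gene that NFATC1 is known to repress in follicle stem cells, stood at 243 and 63.8 RPKM, a ratio of 3.81. Rcan1, an inhibitor of calcineurin, stood at 13.0 and 5.73 RPKM, and Ppp3r1, the calcineurin regulatory subunit, at 36.1 and 23.6 RPKM. Among the R-spondins, ligands of LGR5, Rspo4 stood at 164 and 100.2 RPKM, Rspo1 at 65.2 and 32.3 RPKM and Rspo3 at 61.6 and 19.3 RPKM. All 3 were far more abundant than Lgr5. Cd200r1, the receptor of CD200, was listed at 0 in both libraries.

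Other follicle stem cell genes, a list of 19, lay mostly below the median gene, with 7 of the 18 compared above it. Krt15, Lrig1 and Nfib were among those above. The share of all genes above the median gene was not computed. Among the 18 compared, 6 passed 2-fold upwards and none downwards as deposited, again against 44.1% and 3.55% of all genes. With the median gene as zero point none passed upwards and 1, Dkk3, downwards, against 14.7% and 11.4% of all genes. The deposited median of the list was 0.56 on the log2 scale, which became -0.25 with that zero point, against 1.04 and 0.31 for the 10 genes. Hopx, a homeodomain protein of bulge cells, stood at 112 and 29.6 RPKM, a ratio of 3.80. Sfrp1, a secreted WNT inhibitor, was nearly level as deposited, at 173 and 161 RPKM, and at -0.87 on the log2 scale relative to the median gene. Krt15, a bulge keratin, stood at 466 and 219.9 RPKM. The 2 lists were both written with results of these data known, so the difference between their medians is a description.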

How the data were processed

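Polyadenylated RNA of ZIP10-positive and ZIP10-negative ventral skin cells was sequenced as 1 library each, from 10 ng of total RNA with single reads of 50 bases, per the labels' protocols. The authors deposited RPKM values per gene symbol, and mm9, Cufflinks, TopHat and cutadapt are named in the submitters' processing notes. The sources used here give no versions, annotation or strand use, so reads of overlapping or antisense genes cannot be told apart. The deposited columns sum to 703748 and 685692 RPKM.

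Genes that reached 1 RPKM in either library were compared with a pseudocount of 1 RPKM. The median gene and the other zero points were divided between the libraries. Depth was estimated from whole-number ratios of low values (64.1% of 1389 genes, tolerance 6 ppm) and lengths of 635 genes with 1 GENCODE vM21 transcript (22.5% of them fell in a window of 1.4% around the commonest depth), with an assumed offset of 199 bases. Reads per gene use RefSeq-linked transcript lengths of another build than mm9 and are rough; for 5 of the 10 genes they are whole multiples of the fewest reads that give the ratio. Ratio intervals are Clopper-Pearson and level intervals Poisson, at 95%. Reads carry no molecular identifiers. The scripts were tested on simulated data.

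The genes and lists were chosen with earlier results of these data known. From each list up to 4 of the most abundant genes are named with values; the family shares and the motifs, and Lef1, Tcf7l2, Tbx15, Foxc2, Sox10, Lgr6, Rnf43, Dkk3, Ppp3ca and Cd200r1, were chosen after their values were seen. Plet1 and Adgre1 were matched by older symbols. Python 3.11.15, pandas 2.3.3, numpy 2.4.6, scipy 1.17.1 and matplotlib 3.10.9 were used.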

Additional observations from a re-analysis of the deposited data

How the results depend on the processing

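The main limits are 1 library per group, 11 to 114 estimated reads per gene and library, and a zero point that the data do not fix. No paired analysis was possible because each group has 1 library. The cause of the changes below was not tested, except that the scalings move every ratio by construction and a filter leaves fewer genes.

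Of the 10 stem cell genes, 5 were at least 2-fold higher as reported. The count was 8 with a pseudocount of 0.1 RPKM, against 6453 of the 12249 genes compared, and 2 with one of 5 RPKM, against 2782. It was 3 with a filter of 5 RPKM, which 6 of the 10 passed, against 4228 of all genes that passed that filter. Relative to the median gene it was 1, against 14.7% of all genes. It was 0 under each of the other 3 scalings, against 9.7%, 8.99% and 9.93% of all genes (outside the 50 most abundant, without globin genes and Rn45s, and to the keratinocyte markers, the last chosen after seeing the data). None of the 10 was 2-fold lower under any alternative run. Their median log2 ratio of 1.04 moved to 0.061, 0.013 and 0.078 under those 3 scalings. With either pseudocount all 10 log2 ratios stayed above 0, Tbx1 ranging from 1.10 at 5 RPKM to 2.23 at 0.1 RPKM.

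Over all genes compared, the reported counts past 2-fold were 5405 upwards and 435 downwards. These were 2782 higher and 104 lower with a pseudocount of 5 RPKM, 1799 and 1398 relative to the median gene, 1188 and 2151 outside the 50 most abundant, and 1101 and 2352 without globin genes and Rn45s. A pseudocount of 0.1 RPKM gave 6453 higher and 679 lower, and a filter of 5 RPKM 4228 higher and 168 lower.

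Signs turned for 5 genes. Relative to the median gene Sox9 was at -0.21 and Cd200 at -0.041. Outside the 50 most abundant, without globin genes and Rn45s, and relative to the keratinocyte markers, in this order, Sox9 was at -0.51, -0.57 and -0.49, Cd200 at -0.33, -0.39 and -0.31, Tcf7l1 at -0.15, -0.21 and -0.13, Runx1 at -0.090, -0.14 and -0.072, and Lgr5 at -0.019, -0.060 and -0.0045.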
